A study of Mus musculus with 4 samples.

Results

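Arg1, Arg2, Nos2, Ido1, Acod1 and Il4i1 encode 6 metabolic enzymes by which myeloid cells can restrain lymphocytes, and their transcripts were followed in single leukocytes of tumour-bearing lungs. The 6 genes were chosen by name from the 31053 genes of the deposited count matrices. Perfused lungs of Balb/c mice were taken 14 days after tumour cells of the breast cancer line 4T1, which metastasises to lung, had been given by vein. The tumour cells carried a PD-L1 knockout (PD-L1 KO, 2 libraries) or were wild type (WT, 2 libraries). PD-L1 engages the checkpoint receptor PD-1 on T cells. The knockout was in the injected tumour cells, so the leukocytes of both groups came from hosts with no stated alteration. Cells were enriched for the leukocyte surface protein CD45 with magnetic beads and sequenced with the 10x Genomics 3' kit. The sex and age of the mice, the number of knockout clones and whether each library came from a separate mouse are not given in the labels. P-values therefore reflect the spread of these libraries alone, and that spread could be technical. For all 4 libraries the file name states the other condition than the sample label does, and every direction given here rests on the labels.

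Amino acids and their products are fuel and signal for T cells. Arginase 1 (Arg1, cytosolic) and arginase 2 (Arg2, mitochondrial) split arginine into ornithine and urea, and inducible nitric oxide synthase (Nos2) turns the same amino acid into nitric oxide and citrulline. Indoleamine 2,3-dioxygenase 1 (Ido1) opens the breakdown of tryptophan to kynurenines, and interleukin 4 induced 1 (Il4i1) is a secreted oxidase of phenylalanine and other aromatic amino acids. Aconitate decarboxylase 1 (Acod1, also called Irg1) makes itaconate from an intermediate of the citric acid cycle in activated myeloid cells. Arginases and Nos2 are classically linked to the opposing activation states of macrophages and to tumour-associated myeloid cells.

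The files' gene identifiers were matched to the GENCODE annotation of mm10. Arg1 (ENSMUSG00000019987) lies on chromosome 10, 24915221 to 24927484, minus strand, and Arg2 (ENSMUSG00000021125) on chromosome 12, 79130777 to 79156301, plus strand. Nos2 (ENSMUSG00000020826) lies on chromosome 11, 78920787 to 78960254, plus strand, and Ido1 (ENSMUSG00000031551) on chromosome 8, 24584136 to 24597009, minus strand. Acod1 (ENSMUSG00000022126) lies on chromosome 14, 103046977 to 103056573, plus strand. Il4i1 (ENSMUSG00000074141) lies on chromosome 7, 44816387 to 44840809, plus strand. It overlaps Nup62, a nuclear pore gene at 44816088 to 44830812 on the same strand, so assignment of reads in the shared stretch is uncertain.

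Promoter windows, 250 bases before to 50 after a gene's start, were at hand for 2 of the 6 genes. They are shown because Acod1 was led by neutrophil-like and Il4i1 by mature dendritic-like cells, as given below. The sequences are RefSeq's on GRCm38.p6, plus strand, at chr14:103046762-103047061 for Acod1 and chr7:44836038-44836337 for Il4i1, whose RefSeq start lies inside the longer gene span given above. Capitals mark matches on either strand to GGNNNTTCC, the short form of the kappaB site of NF-kappaB, and to GAGGAA, a core of sites bound by the myeloid factor PU.1.
Acod1: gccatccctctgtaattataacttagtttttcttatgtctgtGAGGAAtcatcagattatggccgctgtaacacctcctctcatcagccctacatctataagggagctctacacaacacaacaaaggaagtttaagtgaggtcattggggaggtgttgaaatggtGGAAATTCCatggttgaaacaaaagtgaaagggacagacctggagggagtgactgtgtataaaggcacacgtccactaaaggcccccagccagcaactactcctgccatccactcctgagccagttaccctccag
Il4i1: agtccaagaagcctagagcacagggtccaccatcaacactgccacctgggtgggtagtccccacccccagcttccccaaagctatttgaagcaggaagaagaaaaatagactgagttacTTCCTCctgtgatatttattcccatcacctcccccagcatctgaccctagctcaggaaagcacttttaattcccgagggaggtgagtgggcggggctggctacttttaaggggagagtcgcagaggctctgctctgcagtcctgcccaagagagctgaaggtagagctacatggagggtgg
The Acod1 window held a kappaB match at base 166 and a PU.1 match at base 43, and the Il4i1 window a PU.1 match at base 120. Of 32851 promoter windows of the same length, 18.5% held the kappaB letters and 28.3% the PU.1 letters. Neither window held TTGCNNAA (C/EBP, in 10.8% of windows), TTCNNNGAA (the interferon gamma activated site, 8.30%), the STAT6 site (6.95%) or the interferon-stimulated response element (3.44%). The short motifs could overlap, and a match is only a match of letters.

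The 4 libraries held 2370 to 2736 barcodes and 17618220 to 19635983 UMIs (unique molecular identifiers, each marking 1 captured RNA molecule), and 9054 of 10382 barcodes were kept. At most 3 barcodes were shared by a pair of libraries. Cells were clustered without the 6 genes and clusters were named by marker genes, so that a name ending in "-like" stands for a cluster with those markers. Of 32 clusters, 10 with mixed or weak markers stayed unnamed and held 17.1% to 27.9% of the cells of a library, most in WT library 2. The markers fitted the myeloid names: S100a9 had a UMI in 98.9% of neutrophil-like cells, Plet1 in 99.3% of alveolar macrophage-like cells, C1qb in 87.8% of C1q macrophage-like cells, Xcr1 in 95.5% of type 1 dendritic-like cells and Fscn1 in 89.0% of mature dendritic-like cells. Marco and Fabp4, also alveolar macrophage markers, had one in only 3.42% and 16.5% of the alveolar class. ILC2-like cells rested on Gata3, Rora and Il1rl1, with Il13 in 3.10% of them. WT library 2 stood apart, with 38 cells of the larger C1q cluster (cluster 3) against 114 in WT library 1 and with 5.37% endothelial-like cells against 2.72% to 3.18% in the others. Cd274, the gene of PD-L1, had 2 and 1 UMIs in 5 and 3 carcinoma-like cells of the PD-L1 KO libraries and 0 and 6 UMIs in 5 cells and 1 cell of the WT libraries, and a 3' count need not fall with a deletion elsewhere in the gene.

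Each enzyme gene was spread over the classes in its own way. Arg1 had 2246 UMIs in 239 cells, and C1q macrophage-like cells, 8.08% of all cells, held 74.8% of them. Arg2 (4960 UMIs in 2381 cells) and Acod1 (5750 UMIs in 1702 cells) came more from neutrophil-like cells than from any other named class, and these held 31.5% and 38.6% of their UMIs. Il4i1 had 899 UMIs in 354 cells, and mature dendritic-like cells, 0.806% of all cells, held 48.7% of them. Nos2 had 174 UMIs in 117 cells and Ido1 30 UMIs in 20 cells. Unnamed clusters held 11.7% of the Arg1, 26.6% of the Arg2 and 35.0% of the Acod1 UMIs. For Arg2 and Acod1 most of that share was in clusters 9, 11 and 14, which mixed neutrophil markers with those of monocytes, B cells or T cells and held 22.7% of the Arg2 and 31.3% of the Acod1 UMIs.

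**Figure D1:**
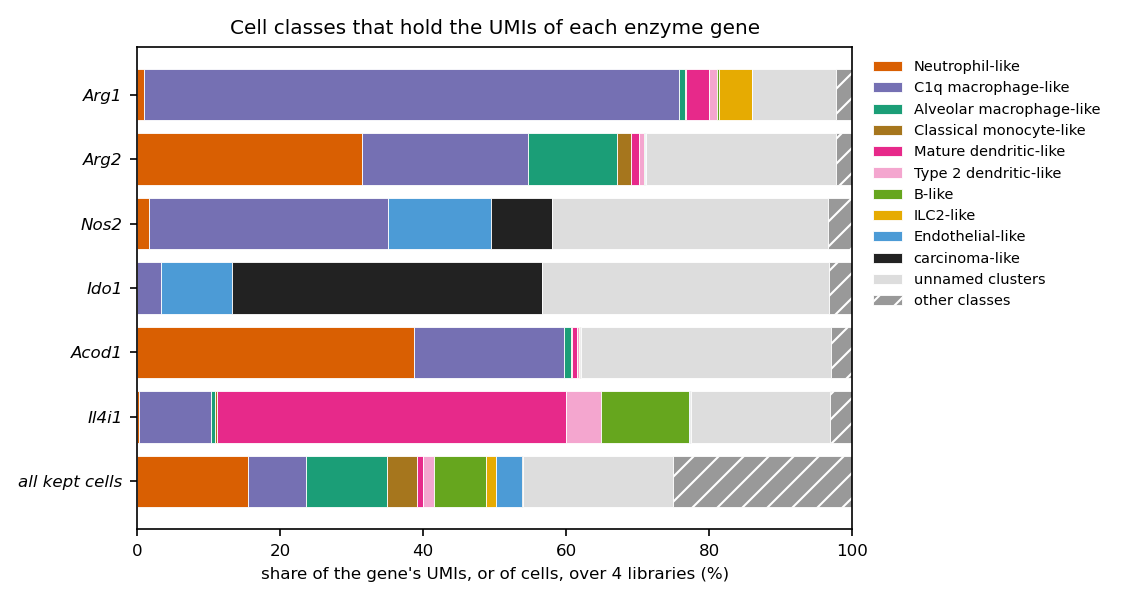
Share of each gene's UMIs, in percent over the 4 libraries together, held by each class of cells, with the share of all kept cells in the bottom bar. Arg1 is led by C1q macrophage-like cells (74.8%), Arg2 and Acod1 by neutrophil-like cells (31.5% and 38.6%) and Il4i1 by mature dendritic-like cells (48.7%).

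Over 15 classes of at least 50 cells, the mean log2(CPM + 1) of Arg2 and Acod1 correlated with r = 0.82 and that of Nos2 and Ido1 with r = 0.71. CPM is the UMIs of a gene per 1000000 UMIs of all genes in the summed class. The other pairs of the 6 genes had r between -0.21 and 0.27. These are descriptions over classes that share libraries and depth. The 3 genes of most similar class pattern were Mmp9 (r = 0.98), S100a9 (0.98) and Stfa2l1 (0.97) for Acod1, and Tnfaip2 (0.95), Slc7a11 (0.95) and Ppp1r3d (0.94) for Arg2. For Il4i1 they were Mir155hg (r = 0.84), Aldh1a2 (0.83) and Tmem123 (0.82), and for Arg1 Stab2 (0.84), Olfr1259 (0.82) and Il1rl1 (0.82), each highest in ILC2-like cells. For the sparse Nos2 they were Apold1, Fam167b and Hbegf (r = 0.88 each), and for the still sparser Ido1 Epha4 (0.93), Hpgd (0.90) and Dbndd2 (0.90). In the 15 classes Ido1 had only 3 UMIs in endothelial-like, 1 in C1q macrophage-like and 1 in nonclassical monocyte-like cells. Every r of Ido1, that with Nos2 included, rests on these few molecules. Carcinoma-like cells and unnamed clusters, with 13 and 12 Ido1 UMIs, were not among the 15 classes.

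Arginase 1 transcripts were concentrated in a small number of C1q macrophage-like cells, while other positive cells held few. The C1q class had 2 clusters. Cluster 3 was led by C1q genes with Cxcl16 and MHC class II genes, and cluster 17 by C1q genes with Folr2, Pf4 and Stab1, which are known from resident macrophages. In cluster 3, Arg1 had 449 UMIs in 10 of 183 cells of PD-L1 KO library 1 and 373 UMIs in 33 of 198 cells of PD-L1 KO library 2. It had 706 UMIs in 25 of 114 cells of WT library 1 and 65 UMIs in 4 of 38 cells of WT library 2. Thus 5.46% and 16.7% of the cells of the PD-L1 KO libraries had a UMI, against 21.9% and 10.5% of those of the WT libraries, and the groups overlapped. In B-like cells, which should lack the gene, Arg1 was found in 0% of the cells of both PD-L1 KO libraries and in 1.05% and 0% of the cells of the WT libraries, at a median depth of 2759 to 2833 UMIs a cell.

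The 5 cells with most Arg1 held 94.0% and 68.9% of the gene's UMIs in cluster 3 in PD-L1 KO libraries 1 and 2, and 64.7% and 100% in WT libraries 1 and 2. The top cell held 118 and 63 UMIs in the PD-L1 KO libraries and 134 and 38 in the WT libraries. Positive cells with only 1 UMI numbered 2 and 9 in the PD-L1 KO libraries and 4 and 0 in the WT libraries. The Arg1 level of cluster 3 was 153 and 122 CPM in the PD-L1 KO libraries against 336 and 172 CPM in the WT libraries. Every WT value lay above both PD-L1 KO values. edgeR's quasi-likelihood test gave a log2 difference (PD-L1 KO minus WT) of -0.95 ± 0.28 (SE, n = 2 libraries each) with a Benjamini-Hochberg adjusted p of 1.00 over all genes tested, so no difference was called. That fit called 0% of all genes. The difference was called when all genes with a count were tested (-0.92, edgeR adjusted p = 0.00188), and was -0.31 without WT library 1 (adjusted p = 0.632). Without the top cell of each library the levels were 114 and 103 CPM in the PD-L1 KO libraries and 275 and 75.4 CPM in the WT libraries, and the groups then overlapped.

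Cluster 3 itself made up 8.24% and 9.81% of the cells of the PD-L1 KO libraries against 4.65% and 1.61% of those of the WT libraries, with no overlap. This share was not tested, and the smallest two-sided p of an exact permutation test of 2 against 2 libraries is 0.333. Depth also differed: the median was 14002 and 12646 UMIs a cell in the PD-L1 KO libraries and 16870.5 and 6930 in the WT libraries. The summed level of the 10 neutrophil markers in cluster 3 was 6573 and 8847 CPM in the PD-L1 KO libraries and 4867 and 16430 CPM in the WT libraries, with overlap. The 8 classical monocyte markers summed to 2260 and 2278 CPM in the PD-L1 KO libraries against 2101 and 1602 CPM in the WT libraries, with no overlap. Of these 8, 5 were higher in both PD-L1 KO libraries and 0 lower in both. The 8 C1q macrophage markers went the other way, at 16723 and 16486 CPM against 17573 and 22174 CPM, with no overlap. Of them 1 was lower in both PD-L1 KO libraries and 0 higher. The 12 alveolar macrophage markers summed to 292 and 430 CPM against 557 and 248 CPM, with overlap. No share of all genes stands beside these counts. No marker of these lists was at 0 in every library. The part of depth or of these markers in the Arg1 values was not tested. Over whole libraries Arg1 had 34.9 and 36.5 CPM in the PD-L1 KO libraries and 49.6 and 8.78 CPM in the WT libraries (log2 difference 0.32 ± 0.80 SE, edgeR adjusted p = 0.906). That difference was -0.46 without WT library 2 and 2.14 without WT library 1.

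Cells with Arg1 in cluster 3 were deeper than those without it, with medians of 26830 and 22035 UMIs against 13851 and 11797 in the PD-L1 KO libraries, and 28033 and 20168 against 11445 and 6179 in the WT libraries. Of 17 genes of arginine transport, synthesis and polyamines with at least 30 UMIs in Arg1-positive cells, 2 had a higher CPM in those cells in all 4 libraries. These were Slc7a2, a cationic amino acid transporter that carries arginine, and Sms, spermine synthase, while Srm, spermidine synthase, was lower in all 4. Slc7a2 had 85.8 and 37.8 CPM in Arg1-positive cells against 27.5 and 32.1 CPM in the negative cells of the PD-L1 KO libraries, and 65.6 and 61.4 CPM against 41.6 and 3.56 CPM in the WT libraries. Of 17 genes around itaconate and its targets, Hmox1 (heme oxygenase 1), Gclm (glutathione synthesis) and Aco1 (cytosolic aconitase) were higher in all 4, and Nfe2l2 (the stress-response factor Nrf2) and Atf3 (a stress-induced repressor) lower in all 4. Of 23 inducing receptors and transcription factors 0 were higher and 6 lower, of 5 nitric oxide genes 0 were higher and 1 lower, and of 5 tryptophan genes 1 was higher and 0 lower. The share of all genes that were higher or lower in all 4 libraries was not computed. These counts, and those of markers below, thus have no background beside them and are not read as a trait of the lists. Hmox1 had 275 and 656 CPM in Arg1-positive against 82.0 and 195 CPM in negative cells of the PD-L1 KO libraries, and 131 and 41.0 against 94.2 and 28.4 CPM in the WT libraries.

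Markers also split by Arg1 within the cluster. Of 7 classical monocyte markers, Fn1 (fibronectin) and F13a1 (a clotting factor subunit) were higher, and Ms4a6c and Csf1r (the receptor of the macrophage growth factor) lower, in the Arg1-positive cells of all 4 libraries. Of 8 C1q macrophage markers, 0 were higher and 2, Ms4a7 and again Csf1r, lower in all 4. Fn1 had 386 and 741 CPM in Arg1-positive against 168 and 453 CPM in negative cells of the PD-L1 KO libraries, and 1155 and 451 against 177 and 7.11 CPM in the WT libraries. Ms4a6c had 365 and 580 CPM in positive against 839 and 725 CPM in negative cells of the PD-L1 KO libraries, and 390 and 430 against 704 and 434 CPM in the WT libraries. Monocyte markers thus moved in both directions. Ms4a7 had 200 and 331 CPM in positive against 420 and 349 CPM in negative cells of the PD-L1 KO libraries, and 161 and 195 against 372 and 605 CPM in the WT libraries. Of 10 neutrophil markers, 0 were higher and 0 lower in all 4. Of 3 ILC2 markers with at least 30 UMIs in Arg1-positive cells, 1, Gata3, was higher and 0 lower in all 4. Gata3 had 42.9 and 21.6 CPM in positive against 11.3 and 10.8 CPM in negative cells of the PD-L1 KO libraries. In the WT libraries it had 28.7 and 51.2 against 12.4 and 17.8 CPM. Rora and Il1rl1 were higher in the positive cells of 3 libraries. The sums of positive cells rest on 4 to 33 cells a library, and these values are a description with no test.

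Arg1 also appeared in lymphoid cells. ILC2-like cells, innate lymphocytes known to express Arg1 in the mouse, had 34 and 10 UMIs in the PD-L1 KO libraries and 21 and 37 UMIs in the WT libraries. The share of ILC2-like cells with a UMI was 32.5% (13 of 40) and 26.3% (5 of 19) in the PD-L1 KO libraries and 33.3% (9 of 27) and 46.5% (20 of 43) in the WT libraries. Their level was 174 and 130 CPM in the PD-L1 KO libraries and 197 and 189 CPM in the WT libraries, and no cell held more than 9 UMIs. The same libraries held 6 and 7 cells of cluster 3 with 10 or more Arg1 UMIs in PD-L1 KO and 14 and 2 in WT, at a greater median depth than that of ILC2-like cells, which was 3591 to 4156.5 UMIs. The class had fewer than 20 cells in PD-L1 KO library 2, so it was not tested. Cluster 17 had 0 and 75 Arg1 UMIs in the PD-L1 KO libraries, 75 of them in 2 cells, and 6 and 6 UMIs in the WT libraries. Neutrophil-like cells had 1 and 17 UMIs in the PD-L1 KO libraries and 3 and 0 in the WT libraries. Plasmacytoid dendritic-like cells had 0 UMIs in 136 cells, which allows a share of up to 2.21% of cells with a UMI.

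Arginase 2 was the arginase of neutrophil-like cells. It had a UMI in 65.4% and 60.2% of the neutrophil-like cells of the PD-L1 KO libraries and in 64.0% and 59.7% of those of the WT libraries, although these cells were shallow, with medians of 1574.5 to 1953 UMIs. Cells of at least 1000 UMIs were also thinned to 1000 UMIs, with shallower cells left out. The shares were then 38.2% and 42.6% in the PD-L1 KO libraries and 44.7% and 41.6% in the WT libraries. The level was 522 and 556 CPM in the PD-L1 KO libraries and 583 and 583 CPM in the WT libraries. The log2 difference was -0.01 ± 0.15 (SE, n = 2 each, edgeR adjusted p = 0.992), in a fit that called 0.0647% of all genes and 0 of the 2 enzyme genes it tested. No cell held more than 7 UMIs. To reach 50% of the UMIs took 55 and 73 cells in the PD-L1 KO libraries and 89 and 47 cells in the WT libraries, so Arg2 was spread thinly over many neutrophil-like cells.

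Among the larger myeloid classes, cluster 3 came next in the order of Arg2 levels, with 126 and 125 CPM in the PD-L1 KO libraries and 126 and 50.1 CPM in the WT libraries. Alveolar macrophage-like cells followed with 59.3 and 55.4 CPM in the PD-L1 KO libraries and 49.0 and 54.0 CPM in the WT libraries. WT library 2 put cluster 3 within the range of the alveolar class, so these neighbours were not separated in every library. Alveolar macrophage-like cells with a UMI were 41.9% and 37.7% in the PD-L1 KO libraries and 33.5% and 37.1% in the WT libraries, and 4.78% to 5.26% after thinning. The log2 difference there was 0.19 ± 0.12 (SE, edgeR adjusted p = 0.692). Classical monocyte-like cells had 46.8 and 50.5 CPM in the PD-L1 KO libraries against 29.7 and 26.5 CPM in the WT libraries, with no overlap. Their log2 difference was 0.78 ± 0.28 (SE, edgeR adjusted p = 0.993), from 16 to 33 UMIs a library, and was not called in a fit that called 0.033% of all genes. T-like cells had 2.82 to 8.28 CPM, B-like cells 1.65 to 7.04 CPM and ILC2-like cells 0 UMIs in 129 cells, which allows up to 2.33% of cells with a UMI.

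**Figure D2:**
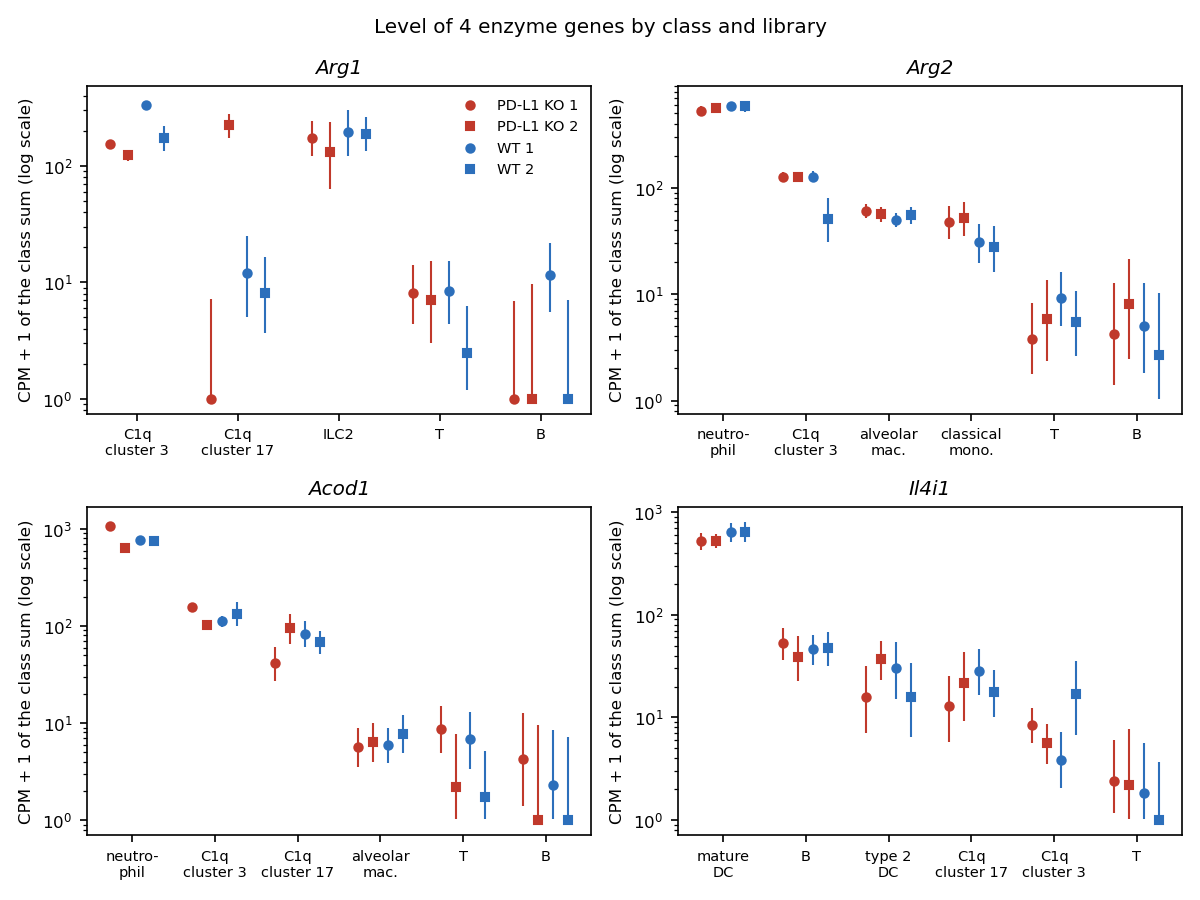
Level of Arg1, Arg2, Acod1 and Il4i1 as CPM + 1 of the class sum on a log axis, by class, with PD-L1 KO libraries in red left of the WT libraries in blue and bars for the exact 95% Poisson interval of the counts. Arg2 in neutrophil-like cells sits at 522 to 583 CPM in all 4 libraries, while Arg1 in C1q cluster 17 runs between 0 and 222 CPM.

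Acod1 showed the same lead of neutrophil-like cells and larger spread between libraries. Its level there was 1084 and 634 CPM in the PD-L1 KO libraries and 767 and 746 CPM in the WT libraries, so that both WT values lay between the PD-L1 KO values. A UMI was found in 68.2% and 53.1% of the neutrophil-like cells of the PD-L1 KO libraries and in 57.2% and 50.4% of those of the WT libraries. The log2 difference was 0.28 ± 0.23 (SE, n = 2 each, edgeR adjusted p = 0.885) and turned to -0.15 without PD-L1 KO library 1. By cluster, the same library led in both neutrophil-like clusters: cluster 1 had 1138 and 819 CPM in the PD-L1 KO libraries and 783 and 665 CPM in the WT libraries, and cluster 4 had 1043 and 461 CPM in the PD-L1 KO libraries against 747 and 864 CPM in the WT libraries.

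Cluster 3 of the C1q class had 156 and 101 CPM of Acod1 in the PD-L1 KO libraries and 111 and 132 CPM in the WT libraries (log2 difference 0.11 ± 0.23 SE, edgeR adjusted p = 1.00). The alveolar class, in which Arg2 was frequent, had 4.69 and 5.43 CPM of Acod1 in the PD-L1 KO libraries and 4.96 and 6.81 CPM in the WT libraries, with 2.08% to 3.93% of its cells positive. That is within the 0 to 7.75 CPM of B-like and T-like cells. Type 1 dendritic-like cells had 34.4 and 42.6 CPM in the PD-L1 KO libraries and 22.3 and 27.6 CPM in the WT libraries, with no overlap, from 1 to 5 positive cells a library (log2 difference 0.59 ± 0.35 SE, edgeR adjusted p = 0.991, in a fit that called 0% of all genes).

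The levels of Arg2 and Acod1 outside neutrophil-like cells were set beside the level that neutrophil RNA in the class, free or not, would give. That level was the S100a8 and S100a9 CPM of the class times the ratio of the gene to S100a8 and S100a9 in neutrophil-like cells of the same library. S100a8 and S100a9 were uneven over classes, with 4290 to 14860 CPM in cluster 3 against 28.2 to 155 CPM in B-like cells. Whether this RNA was free was not tested. Arg2 in alveolar macrophage-like cells was 13.3 to 204 times this level and in classical monocyte-like cells 24.0 to 209 times. Acod1 in alveolar macrophage-like cells was 1.31 to 7.78 times this level. In C1q cluster 3, Arg2 was 0.763 to 8.45 times and Acod1 1.57 to 5.68 times this level. In cluster 17 Arg2 was 0.816 to 2.06 times and Acod1 1.14 to 1.83 times, and in WT library 2 Arg2 was below it in both clusters. No excess over this level is claimed for those Arg2 values of WT library 2 or for cluster 17, and the source of these transcripts was not tested. Barcodes that failed the cell filter, 307 and 308 in the PD-L1 KO libraries and 227 and 284 in the WT libraries, had 37.1 and 28.5 CPM of Arg2 in the PD-L1 KO libraries and 21.3 and 28.5 CPM in the WT libraries.

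**Figure D3:**
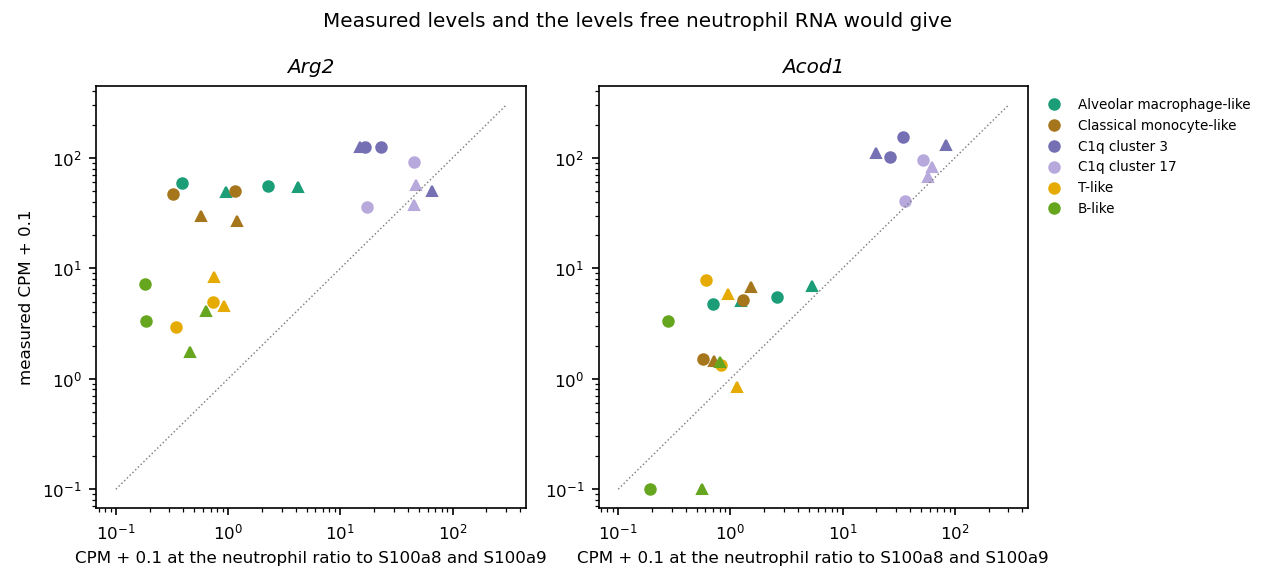
Measured CPM + 0.1 of Arg2 (left) and Acod1 (right) against the CPM + 0.1 that the neutrophil ratio to S100a8 and S100a9 gives, both on log axes, with circles for PD-L1 KO and triangles for WT libraries and a dotted line of equality. Arg2 in alveolar macrophage-like cells lies 13.3 to 204 times above the line, while Acod1 in C1q cluster 17 lies 1.14 to 1.83 times above it. The title calls the level on the horizontal axis that of free neutrophil RNA, but whether the RNA was free was not tested.

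Arg2 and Acod1 were often found in the same cell. Of 1404 neutrophil-like cells, 876 had Arg2, 800 had Acod1 and 512 had both. Acod1 was found in 55.5% to 65.8% of the Arg2-positive and in 38.9% to 72.7% of the Arg2-negative neutrophil-like cells of a library, ranges that overlap. In cluster 3, 149 of 533 cells had both, and Acod1 was found in 44.1% to 58.8% of the Arg2-positive against 10.3% to 30.7% of the Arg2-negative cells. Of the 72 Arg1-positive cells of cluster 3, 56 also had Arg2 and 12 had Nos2, and 26 cells had Nos2 in all. Deeper cells show more of every gene, and the part of depth in these counts was not tested.

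**Figure D4:**
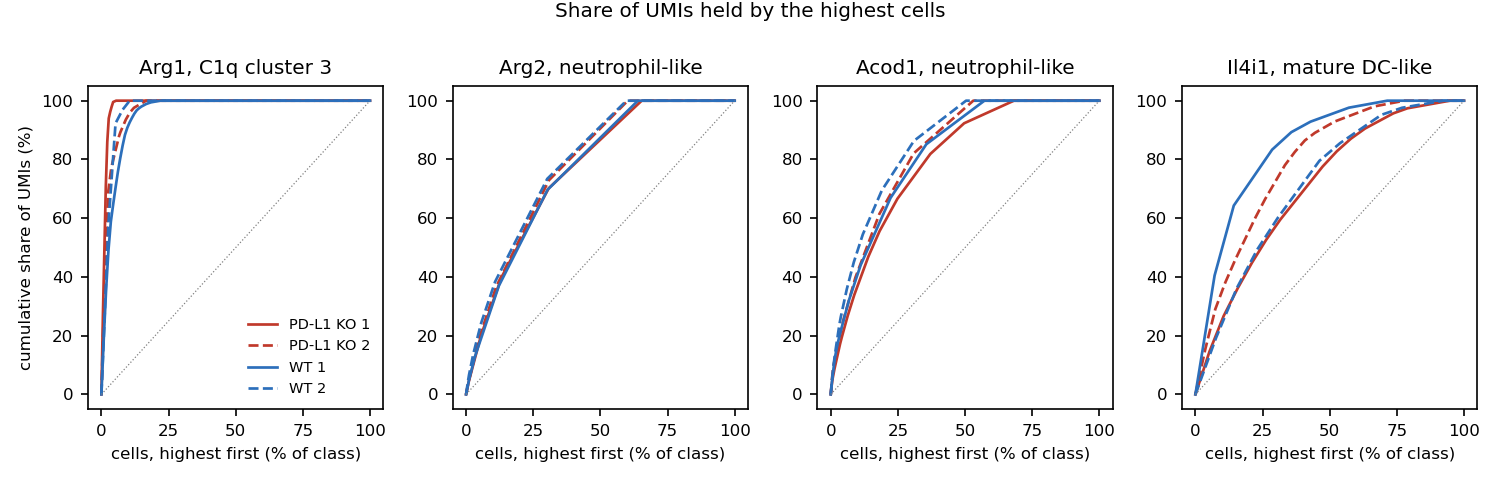
Cumulative share of a gene's UMIs, in percent, against the share of the cells of the class taken from the highest down, for each library (PD-L1 KO red, WT blue, library 1 solid and 2 dashed). For Arg1 in C1q cluster 3 the curve is complete by 21.9% of the cells in every library, while for Arg2 in neutrophil-like cells it needs 59.7% or more.

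Il4i1 was the gene of mature dendritic-like cells, a state that dendritic cells reach on activation and migration, marked by Ccr7 and Fscn1. It had a UMI in 18 of 19 and 21 of 27 of these cells in the PD-L1 KO libraries and in 10 of 14 and 12 of 13 in the WT libraries. The counts were 116 and 155 UMIs in the PD-L1 KO libraries and 84 and 83 UMIs in the WT libraries. The level was 521 and 519 CPM in the PD-L1 KO libraries against 634 and 638 CPM in the WT libraries, with no overlap. In WT library 1, 34 of the 84 UMIs were in 1 cell, so its level leans on that cell. The top cell held 17 and 24 UMIs in the PD-L1 KO libraries and 16 in WT library 2. With 13 to 27 cells a library the class was too small to be tested. B-like cells were next with 51.6 and 37.5 CPM in the PD-L1 KO libraries and 45.1 and 46.3 CPM in the WT libraries (log2 difference -0.02 ± 0.29 SE, edgeR adjusted p = 0.999, in a fit that called 0% of all genes), and 11.2% to 14.1% of them had a UMI. Type 2 dendritic-like cells had 14.9 and 35.9 CPM in the PD-L1 KO libraries and 29.2 and 14.9 CPM in the WT libraries, below B-like cells in every library. T-like cells had 0 to 1.41 CPM, and NK-like cells had 0 UMIs in 519 cells, which allows up to 0.578% of cells with a UMI.

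Over whole libraries Il4i1 had 254 and 268 UMIs in the PD-L1 KO libraries against 201 and 176 UMIs in the WT libraries, with no overlap (log2 difference 0.56 ± 0.18 SE, edgeR adjusted p = 0.751, not called). In the sum of type 1, type 2 and mature dendritic-like cells, without plasmacytoid ones, the log2 difference was 0.52 ± 0.20 (SE, edgeR adjusted p = 0.573), in a fit that called 0.124% of all genes. The share of mature dendritic-like cells was 0.856% and 1.34% in the PD-L1 KO libraries against 0.571% and 0.550% in the WT libraries. The sums were higher in PD-L1 KO libraries, which also held more mature dendritic-like cells. The level within those cells was lower there, but it was not tested and leaned on 1 cell in WT library 1. The part of the cell shares in the sums was not tested. None of these differences passed the test where one could be made. In the same sum Arg1 had 11 and 79 UMIs in the PD-L1 KO libraries and 3 and 6 UMIs in the WT libraries (log2 difference 3.05 ± 0.83 SE, edgeR adjusted p = 0.349). Of the 79 UMIs, 73 were in 1 mature dendritic-like cell, the only cell of that class with Arg1, and without that library the difference was 1.19 (adjusted p = 0.989).

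Nos2 and Ido1 were sparse, and a large part of their UMIs lay outside myeloid classes. C1q macrophage-like cells held 33.3%, endothelial-like cells 14.4% and the 14 carcinoma-like cells 8.62% (15 UMIs) of the Nos2 UMIs. Cluster 25, unnamed because it mixed epithelial with endothelial markers, held 12 Nos2 UMIs. Nos2 had 26 and 9 UMIs in cluster 3 of the PD-L1 KO libraries and 21 and 1 UMIs in that of the WT libraries. Endothelial-like cells had 6.74 and 15.5 CPM in the PD-L1 KO libraries and 13.7 and 9.03 CPM in the WT libraries. Cluster 13, unnamed because it joined endothelial with erythroid markers, held a further 5 and 15 Nos2 UMIs in the PD-L1 KO libraries and 7 and 23 in the WT libraries. Nos3, the endothelial nitric oxide synthase and a separate gene, had 17.6 CPM in endothelial-like cells as a mean over libraries. Nos2 had 0 UMIs in 1023 alveolar macrophage-like cells, which allows up to 0.293% of cells with a UMI, in 384 classical monocyte-like cells (up to 0.781%) and in 370 dendritic-like cells (up to 0.811%). Over whole libraries Nos2 had 2.92 and 2.25 CPM in the PD-L1 KO libraries and 2.49 and 2.28 CPM in the WT libraries (log2 difference 0.18 ± 0.28 SE, edgeR adjusted p = 0.850).

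Ido1 had 13 and 3 UMIs in the PD-L1 KO libraries and 7 and 7 in the WT libraries, too few to pass the filter of the test. The 14 carcinoma-like cells, led by the keratins Krt18 and Krt8, held 13 of these 30 UMIs: 7 and 0 in the PD-L1 KO libraries and 4 and 2 in the WT libraries. Type 1 dendritic-like cells, the class known for inducible Ido1 in the mouse, had 0 UMIs in 33 and 33 cells of the PD-L1 KO libraries and in 41 and 49 cells of the WT libraries. Over the 4 libraries this allows a share of up to 1.92% of these cells with a UMI, and in mature dendritic-like cells, also at 0, up to 4.11%. Intervals and such limits cover counting error only.

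None of the 6 genes was called between PD-L1 KO and WT libraries in any of 18 edgeR fits. Of the 6, 5 were tested in at least 1 fit and Ido1 in none, with 39 tests over 14 of these fits. In 7 of the 39 the p was under 0.05 before adjustment. Those 7 lay in 6 fits with overlapping cells, and in the same fits 541 of 13990 genes (whole libraries), 794 of 10486 (monocytes and macrophages summed), 591 of 8069 (dendritic sum), 406 of 9735 (cluster 3), 282 of 6065 (classical monocyte-like) and 215 of 3395 (neutrophil-like cluster 1) had such a p. The share of all genes called was 0.0723% in alveolar macrophage-like, 0.0366% in type 2 dendritic-like, 0.0564% in endothelial-like and 0.104% in nonclassical monocyte-like cells. It was 0.0884% and 0.0959% in neutrophil-like clusters 1 and 4. Over whole libraries 0% of 13990 genes were called, with 15 called by DESeq2, so an uncalled member has the same result as every other gene there. Arg2 had 67.9 and 92.2 CPM in the PD-L1 KO libraries and 79.9 and 46.4 CPM in the WT libraries (log2 difference 0.39 ± 0.34 SE, adjusted p = 0.754). Acod1 had 91.8 and 91.1 CPM in the PD-L1 KO libraries and 90.5 and 57.1 CPM in the WT libraries (0.36 ± 0.26, adjusted p = 0.751). WT library 2 was lowest for Arg1, Arg2, Acod1 and Il4i1. With WT library 1 left out, so that WT library 2 stood alone and was assumed to vary like the others, these 4 passed with log2 differences of 2.14, 0.91, 0.80 and 0.75, as did 2258 of all genes.

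**Figure D5:**
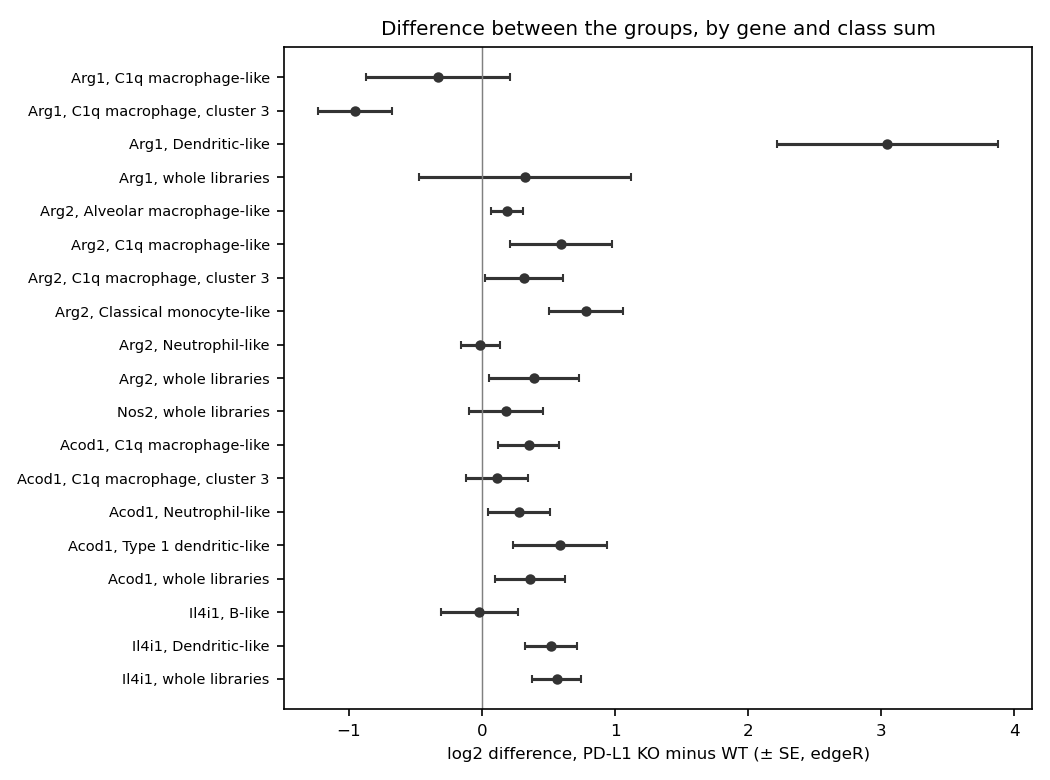
Log2 difference, PD-L1 KO minus WT, with its SE from edgeR for 19 pairs of gene and class sum. No value passed an adjusted p of 0.05, and the value farthest from 0, Arg1 in the dendritic sum at 3.05, includes 1 cell with 73 of the 79 UMIs of PD-L1 KO library 2.

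The partners of these enzymes were followed in 5 lists of 12 to 24 genes. Over whole libraries 0 genes of any list were called. Of 21 tested genes of arginine transport, synthesis and polyamines 16 had a positive sign (median log2 difference 0.17 against -0.02 for all genes). Among those of lowest p there were Aldh4a1 (proline breakdown, log2 difference -0.48) and Ass1 (argininosuccinate synthase, which rebuilds arginine from citrulline, 0.77), each with an edgeR adjusted p of 0.751. Of the itaconate list 14 of 20 were positive (median 0.09), of the tryptophan list 8 of 15 (0.08), of the nitric oxide list 4 of 11 (-0.03) and of the inducing receptors and factors 19 of 24 (0.19). These medians lie within a fit in which no gene was called.

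Over all fits 3 list genes were called, of which 2 are described here. Cebpb, a transcription factor of myeloid enzyme induction, rose in NK-like cells of the PD-L1 KO libraries, in a fit that called 0.465% of all genes. It had 278 and 194 CPM in the PD-L1 KO libraries against 122 and 161 CPM in the WT libraries (log2 difference 0.78 ± 0.19 SE, edgeR adjusted p = 0.0379). NK-like cells held no more than 13 Arg1, 3 Arg2 and 1 Acod1 UMIs in any library. The 12 alveolar macrophage markers summed to 34.8 and 37.6 CPM in the NK-like cells of the PD-L1 KO libraries against 15.8 and 14.4 CPM in those of the WT libraries, with no overlap. Of these 12, 4 were higher in both PD-L1 KO libraries, 0 were lower in both, and 3 were at 0 in every library. None of the 12 had more than 5 UMIs in a library, so their sums rest on few molecules. The 8 C1q macrophage markers summed to 464 and 214 CPM in the NK-like cells of the PD-L1 KO libraries and to 254 and 26.4 CPM in those of the WT libraries, with overlap. The 10 neutrophil markers summed to 89.4 and 116 CPM in the PD-L1 KO libraries and 44.3 and 424 CPM in the WT libraries, with overlap. For the 8 classical monocyte markers the sums were 509 and 579 CPM in the PD-L1 KO libraries and 408 and 573 CPM in the WT libraries, also with overlap. The part of any of these lists in the Cebpb value was not tested. The call did not hold with DESeq2 (adjusted p = 1.00) or with the replicate block (edgeR adjusted p = 0.362), and was lost without PD-L1 KO library 1 or WT library 1.

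Slc7a2 fell in C1q cluster 17, where it was 1 of 18 tested genes of the arginine list called, against 0.204% of all genes. It had 0 and 1 UMIs in 48 and 25 cells of the PD-L1 KO libraries against 32 and 39 UMIs in 52 and 74 cells of the WT libraries. The WT UMIs sat in 3 and 6 cells. The ratio of PD-L1 KO to WT levels was 0.0209, with a counting interval of 0.000523 to 0.121, and the edgeR adjusted p was 0.00113 (0.196 with DESeq2). Slc7a2 was foremost a gene of alveolar macrophage-like cells, which held 87.8% of its UMIs at 574 and 615 CPM in the PD-L1 KO libraries and 628 and 633 CPM in the WT libraries. The 12 alveolar macrophage markers summed to 921 and 870 CPM in cluster 17 of the PD-L1 KO libraries against 1445 and 1483 CPM in that of the WT libraries. Most of each sum was Mrc1, at 853 and 813 CPM in the PD-L1 KO libraries and 1104 and 1120 CPM in the WT libraries. The sums thus say little of the other markers. Chil3, the next highest in the WT libraries, had 16.9 and 8.87 CPM in the PD-L1 KO libraries against 162 and 131 CPM in the WT libraries. Of the 12 markers 8 were lower in both PD-L1 KO libraries than in both WT libraries and none was higher in both. None was at 0 in every library, though Marco and Krt79 were at 0 in all but WT library 1. The part of the 12 markers in the Slc7a2 call was not tested.

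Where the list genes were highest gives the setting of the 6 enzymes. Alveolar macrophage-like cells, with Slc7a2 at a mean of 613 CPM against at most 36.9 CPM in any other class, held only 0.890% of the Arg1 UMIs. Ass1 and Asl (argininosuccinate lyase), the pair that rebuilds arginine, had their highest means, 194 and 64.9 CPM, in the mature dendritic-like cells that carried Il4i1. The next class means were 130 and 39.2 CPM. In this small class Ass1 had 180 and 318 CPM in the PD-L1 KO libraries and 226 and 53.8 CPM in the WT libraries. Asl had 35.9 and 56.9 CPM in the PD-L1 KO libraries and 128 and 38.5 CPM in the WT libraries, so neither lead held in every library. Slc7a11, the cystine transporter, was highest in neutrophil-like cells at 458 CPM. Kmo and Kynu, which act downstream of Ido1 in the kynurenine pathway, were highest in plasmacytoid dendritic-like cells at 274 and 75.7 CPM, a class with 0 Ido1 UMIs. Gch1, which makes the cofactor of nitric oxide synthases, was highest in classical monocyte-like cells at 98.2 CPM, a class with 0 Nos2 UMIs. These genes were singled out after their values were seen.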

How the data were processed

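Transcripts of single CD45-enriched lung cells were counted in 4 libraries, 2 with PD-L1 KO and 2 with WT 4T1 tumour cells, made with version 3 of the 10x Genomics 3' kit. The authors deposited whole-number UMI counts per gene and barcode, and per the submitters' processing notes Cell Ranger 3.1.0, STAR and the mm10 build were used. The sources used here do not state how reads of overlapping genes were assigned. Groups follow the sample labels, and the deposited file names carry the opposite condition.

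Barcodes with under 200 genes or over 10% mitochondrial UMIs were left out (1126), and the highest Scrublet doublet scores at a rate of 0.8% per 1000 barcodes marked 216 more (2.08%). Kept cells were scaled to 10000 UMIs and clustered with scanpy 1.11.5 (2000 variable genes, 30 components, 15 neighbours, Leiden resolution 1). The 6 enzyme genes, interferon, ribosomal and mitochondrial genes were kept out of clustering. A cluster was named from at least 3 markers found in 25% of its cells. UMIs were summed per library and class, and classes of at least 20 cells in every library were tested, without block, by edgeR's quasi-likelihood test (4.0.16, R 4.3.3) with Benjamini-Hochberg adjustment over all genes tested, at a threshold of 0.05. The tests recovered known changes in counts simulated with the spread that the same fits had estimated. That checks the calculation and does not show the power of the tests in these libraries.

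Shares at equal depth used cells thinned to 1000 UMIs and left out cells with fewer. Class patterns used a pseudocount of 1 and genes of at least 20 CPM in a class. Limits for a count of 0 use 3 counts and intervals cover 95%. All 6 enzyme genes are named, with list genes that passed a test, otherwise up to 3 a list of lowest p; some of these are not reported here. The genes and lists were chosen with earlier results of these data known. Alternatives were DESeq2 1.42.0, no gene filter, a replicate block, leaving out each library, other cell filters and other clusterings. A crossed block and fits by cluster were added after seeing the data.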

Additional observations from a re-analysis of the deposited data

How the results depend on the processing

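No enzyme gene was called in the 18 fits as reported, and 17 of 209 alternative fits changed that. Testing all genes with a count called 1 enzyme gene in each of the summed monocytes and macrophages, the summed dendritic-like cells, C1q cluster 3 and C1q cluster 17. A replicate block called 1 in the dendritic sum (Arg1) and 1 in cluster 3 (Arg1, adjusted p = 0.0369), but the labels do not pair the libraries and deviations of same-numbered libraries correlated at -0.326 over whole libraries. The crossed pairing, added after seeing the data, called 1 in the dendritic sum. Leaving out 1 library gave 0 to 4 calls over whole libraries, 0 to 2 in the C1q class, the monocyte and macrophage sum and the dendritic sum, and 0 to 1 in clusters 3 and 17. The log2 difference changed sign for Arg1 in the C1q class with the replicate block (0.039) and the crossed block (0.019). That of Arg2 in neutrophil-like cells did so at Leiden resolutions 0.5 and 2 (0.0030 each) and with the 6 genes kept in clustering (2.68e-05). With 1 library left out it ran between -0.46 and 2.14 for Arg1, and -0.0073 and 0.34 for Nos2, over whole libraries, between -1.04 and 1.28 for Arg1 in the C1q class, and between -0.23 and 0.11 for Il4i1 in B-like cells. It ran between -0.15 and 0.62 for Acod1 and -0.058 and 0.050 for Arg2 in neutrophil-like cells, and between -0.23 and 0.38 for Acod1 and -0.021 and 1.33 for Arg2 in cluster 3. The 3 calls of list genes became 1 with DESeq2, with doublets kept, at Leiden resolutions 0.5 and 2 and with the 6 genes kept in clustering, 32 with all genes, 30 with the crossed block and 7 to 57 with 1 library left out. Clusters 3 and 17 were not refitted under other clusterings. Of 180 alternative levels 146, and of 90 alternative shares 60, moved by less than 1 SD of the libraries. The causes were not tested. Ido1 had too few UMIs for a test in any fit as reported.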
